A study of Mus musculus with 25 samples.

Results

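The ribosome-fraction CLIP assay piCLIP gave 20437 peak nucleotides for SRSF7 in P19 cells, and 6684 of them (32.7%) were also peak nucleotides of whole-cell SRSF7 iCLIP on the same strand. These 6684 shared nucleotides are described here. They were chosen from the readout itself: a nucleotide was kept when it stood in the authors' peak list summed over the 4 piCLIP immunoprecipitates and in their summed WT iCLIP peak list. They made up 0.327% of the 2045481 WT iCLIP peaks, and 13753 piCLIP peak nucleotides were not shared. The number of events in those 2 lists therefore describes the choice and tests nothing. Poly and mono are compared on the same 4 libraries whose sum made the piCLIP list, so the choice enters that comparison, as it does for WT. The mutZn, D27aa, anti-SRSF7 and control libraries did not enter the piCLIP list. Which libraries made the WT iCLIP list was not established (below), so their independence of that list is not known.

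SRSF7 is a member of the SR family of RNA-binding proteins. It carries an RNA recognition motif, a zinc knuckle and a serine/arginine-rich domain, and SR proteins are known for their part in splice site choice. SRSF7 also shuttles between nucleus and cytoplasm and is known for roles in mRNA export and polyadenylation. In iCLIP, living cells are exposed to UV light, which links proteins to the RNA they touch, the protein is pulled down, and reverse transcription often stops at the crosslinked base, so that a cDNA end marks a crosslink event to the nucleotide. The piCLIP libraries apply this to monosomal and polysomal fractions, which separate RNA carrying a lone ribosome from RNA carrying several.

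P19 is a mouse embryonal carcinoma cell line, and all 25 libraries come from it. The piCLIP libraries carry the genotype SRSF7-GFP OE (overexpression) and comprise polysomal immunoprecipitates (poly, 2 libraries), monosomal immunoprecipitates (mono, 2), and 1 library each that the titles call poly IgG and mono IgG. All 6 list anti-EGFP as the antibody, so the IgG name rests on the titles. With the same antibody, iCLIP was made from cells of genotype SRSF7mutZn-GFP (mutZn, 2 libraries), SRSF7D27aa-GFP (D27aa, 2) and SRSF7-GFP OE (WT, 3), each with 1 library without UV. Anti-SRSF7 iCLIP from SRSF7-GFP OE cells gave the products titled RRM_OE (2), GFP_OE (2) and endo_OE (2), with 1 library without UV and 1 without antibody, and endo_WT (1) came from cells of genotype WT. The sources used here do not give the promoter of the tagged genes or say whether the lines are clones. Nothing beyond the design text's mention of biological replicates ties libraries of a group to separate cultures, so the p-values measure the spread between these libraries.

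Depth differed widely. The poly immunoprecipitates held 23145 and 18357 events and the mono immunoprecipitates 52553 and 32015, against 11177 events in poly IgG and 1153 in mono IgG. The mutZn libraries held 11782376 and 6436730 events, against 376870 and 388768 in D27aa, and the other libraries ranged between 1789 (GFP_OE without UV) and 3952779 (WT 4). Intervals given below are exact binomial (Clopper-Pearson) 95% intervals and cover counting error only. The groups without UV, IgG or antibody and endo_WT have 1 library each, so their values have no replicate check.

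The shared nucleotides carried few piCLIP events each. Of the 6684, 3443 (51.5%) had 1 event over the 4 immunoprecipitates, 802 had at least 5, 280 at least 10 and 77 at least 20. The highest value was 99 events. Among the 13753 nucleotides that were not shared, 7925 (57.6%) had 1 event and 584 had at least 5, and the highest value was 199. The strongest piCLIP peak nucleotide was thus not a shared one.

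Detection across libraries was thin. In the 4 immunoprecipitates, 4676 shared nucleotides had an event in 1 library, 1363 in 2 libraries, 508 in 3 and 137 in all 4. For the others the counts were 12262, 1178, 241 and 72. Both poly replicates had an event at 224 shared nucleotides, and both mono replicates at 1270. Most shared nucleotides therefore rest on 1 library.

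On the iCLIP side the authors' scores at the shared nucleotides had quartiles of 1, 4 and 19 and a maximum of 512. The threshold of the choice is a place in the list and not a score: 1683 shared nucleotides have the lowest iCLIP score of 1, with a mean piCLIP score of 1.67 and a mean of 0.620 events over the 3 WT libraries. Just outside, 1897 unshared nucleotides (13.8%) lay 1 nt from an iCLIP peak, with a mean piCLIP score of 1.59 and a mean of 0.181 WT events. Another 1686 lay 2 to 5 nt away, while 4768 (34.7%) were more than 1000 nt from any iCLIP peak. Many unshared piCLIP peaks were thus direct neighbours of iCLIP peaks.

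The iCLIP peak list is not the plain sum of the 3 WT libraries analysed here. Its header names 4 result sets, and the scores at the shared nucleotides sum to 141174, against 55842 events in WT 2, 3 and 4. The score was above the sum of these 3 libraries at 5159 shared nucleotides, equal to it at 989 and below it at 536. Of the 6684, 1910 (28.6%) had no event in any of the 3. Which libraries the 4 sets hold was not established here.

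The shared nucleotides lay closer together than the rest of the piCLIP peaks. Neighbours at most 15 nt apart formed 1914 clusters, of which 872 held 1 nucleotide. The 143 clusters of at least 10 nucleotides held 41.8% of the shared nucleotides and spanned a median of 39 nt. Among the unshared nucleotides, clusters of that size held 8.90%. Directly adjacent shared nucleotides formed 4257 runs, of which 173 were at least 5 nt long, and the longest was 30 nt.

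**Figure D1:**
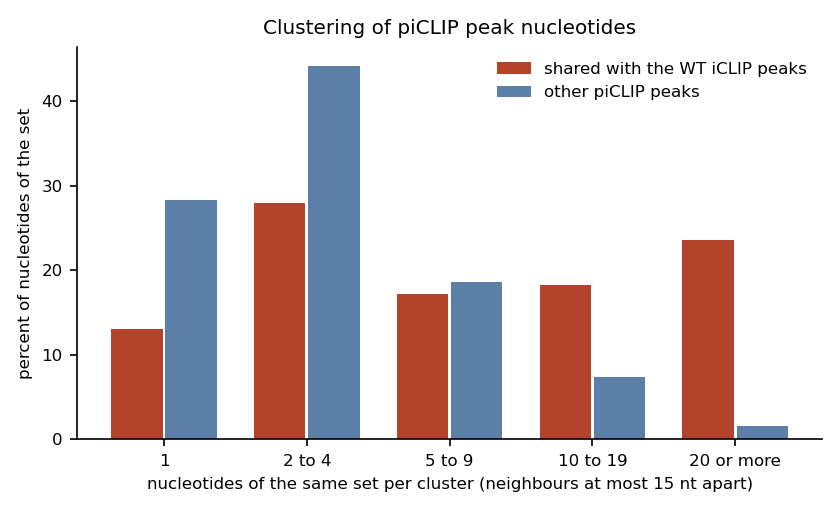
Percent of nucleotides (vertical axis) by the number of nucleotides of the same set in their cluster (horizontal axis), for the 6684 shared (red) and 13753 other (blue) piCLIP peak nucleotides; neighbours at most 15 nt apart form a cluster. Clusters of 20 or more hold 23.5% of the shared nucleotides and 1.57% of the others, while 13.0% and 28.3% stand alone.

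With neighbours up to 5000 nt apart on a strand joined, the shared nucleotides fell into 1307 loci, of which 513 held 1 nucleotide and 62 held at least 20. The 10 loci with most members held 16.8% of all shared nucleotides. Chromosome 17 held 965 of them (14.4%), against 4.70% of the unshared nucleotides. Loci are named by mm9 coordinates, and no gene, exon, intron or UTR is assigned to them because no mm9 annotation was used here. For the same reason no genome sequence is shown.

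The locus with most members was chr17:80599476-80606636 on the minus strand, with 421 shared nucleotides (6.30% of all). It had 140 and 47 events in poly 1 and 2 and 796 and 136 in mono 1 and 2, against 0 in poly IgG and 2 in mono IgG. Scaled to 1000000 events of each library (CPM), these are 6049 and 2560 CPM in poly, and 15150 and 4248 CPM in mono. Both replicates numbered 1 were above both numbered 2, and the poly and mono ranges overlapped. Outside piCLIP it held 12937 and 6099 events in mutZn and 2034 and 1931 in D27aa. The WT libraries had 1637, 4039 and 10211 events there, against 285 without UV. Its densest cluster, chr17:80604014-80604424, held 190 shared nucleotides in 411 nt, the largest cluster of all.

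In the anti-SRSF7 libraries the level at this locus was lowest in endo_WT. It took 10740 ± 3280 CPM in RRM_OE, 10320 ± 6197 in GFP_OE and 9876 ± 591 in endo_OE (SD, n = 2 each), against 596 in endo_WT, the lone library from cells of genotype WT. The controls had 14530 without UV (26 events) and 4221 without antibody (13 events), so a control made without UV was as high as the UV libraries. Another locus had the opposite order: chr19:5796074-5800843 on the minus strand (122 shared nucleotides) had 433 in RRM_OE, 828 in GFP_OE and 1081 in endo_OE, against 1669 in endo_WT. With 1 endo_WT library no test was made.

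The locus with the next most members, chr17:39980042-39985019 on the plus strand, held 221 shared nucleotides. It had 62 and 34 events in poly and 294 and 154 in mono, against 14 in poly IgG and 7 in mono IgG. In CPM, both poly values (2679 and 1852) lay below both mono values (5594 and 4810), and the lone mono IgG value of 6071 lay above all 4. The library without antibody had 92 events there, of its 138 at all shared nucleotides. The locus thus made up most of the shared signal in the library without antibody.

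Among the 22 loci named by rule (the 10 with most members, the 10 with most piCLIP immunoprecipitate events and the 10 with most IgG events), 2 replicate patterns stood out. At chr4:42091188-42092697 (minus, 38 shared nucleotides) poly 1 and 2 had 2376 and 654 CPM, and mono 1 and 2 had 3006 and 1062. At chr1:13805364-13807231 (plus, 39) poly had 1987 and 490, and mono had 2702 and 968. At these loci the libraries numbered 1 were higher in both fractions, with 1 event and 0 events in poly IgG.

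The reverse held elsewhere. At chr9:78023144-78023233 (minus, 60 shared nucleotides in 90 nt) poly 1 and 2 had 346 and 981 CPM, and mono 1 and 2 had 1655 and 4779. At chrX:33620807-33620840 (plus, 32 in 34 nt) poly had 302 and 1961, and mono had 1199 and 4279, with 2684 in poly IgG. Libraries numbered 2 were higher there in both fractions. Over the 183 loci with at least 20 immunoprecipitate events, replicate 1 was the higher one in both fractions at 57, replicate 2 was at 82, and the fractions were opposed at 44.

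**Figure D2:**
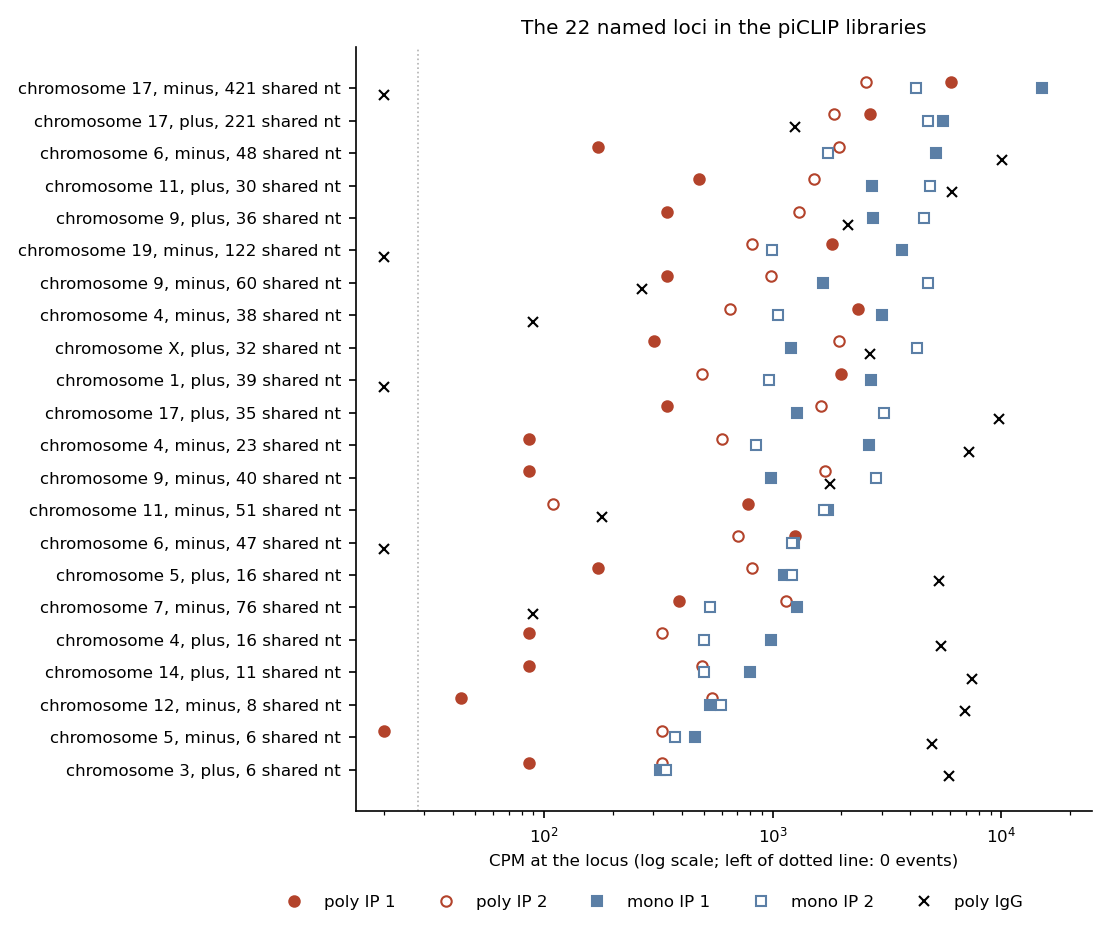
Level in CPM (horizontal axis, log scale) at the shared nucleotides of the 22 named loci (rows, ordered by immunoprecipitate events) in poly (red circles) and mono (blue squares) replicates 1 (filled) and 2 (open) and in poly IgG (crosses); marks left of the dotted line are libraries with 0 events. Poly IgG lies right of every immunoprecipitate at the bottom 5 loci and has 0 events at 4 of the 22. It also lies right of them at some loci higher up. Examples are chr6:128749487-128753129 (10110 CPM, against at most 5214) and chr17:47197549-47197589 (9752, against at most 3061).

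The strongest nucleotides also differed between libraries. The shared nucleotide with most piCLIP events, chr1:13805393 on the plus strand, had 21 and 5 events in poly and 63 and 10 in mono, and 0 in both IgG libraries. It had 7 events in WT 2 and 0 in WT 3 and WT 4. At chr9:78023166 on the minus strand, the nucleotide with the highest iCLIP score (512), poly had 2 and 1 events and mono had 12 and 33, and WT 2, 3 and 4 had 57, 43 and 70. Each was picked as the highest of its own list, so their orders in piCLIP and WT iCLIP describe the choice. In mono 2 the order was that of WT, with 33 events at chr9:78023166 against 10 at chr1:13805393.

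The share of each library's events that fell on the shared nucleotides was lower in poly than in mono. It was 8.30% and 11.3% in the poly immunoprecipitates, and 16.2% and 17.2% in the mono immunoprecipitates. The mean poly share was 0.578 of the mono share. At unshared piCLIP peak nucleotides the order was turned round, with 20.3% and 33.9% in poly and 19.2% and 18.2% in mono, a ratio of 1.404. With each crosslinked position counted once, the shares at shared nucleotides were 7.07% and 9.74% in poly and 10.6% and 11.5% in mono, while those at unshared ones overlapped (14.5% and 21.1% in poly, 15.9% and 16.8% in mono). The peak list was called on the sum of these 4 libraries, in which mono has most events, so no test is given for these shares.

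By nucleotide, 991 of the shared ones (14.8%) had events in poly alone, 4397 (65.8%) in mono alone and 1296 (19.4%) in both fractions. Of the unshared ones, 30.0% were in poly alone, 62.7% in mono alone and 7.34% in both. Shared nucleotides were thus more often seen in both fractions, and depth differs between the fractions, whose part in this was not tested.

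Shared nucleotides took a large part of the poly IgG library too. Its share was 15.99% (1787 of 11177 events; interval 15.3 to 16.7%), above both poly immunoprecipitates and near both mono ones. With each position counted once it was 6.70%, below all 4, so its order against poly depends on how positions are counted. In mono IgG it was 6.68% (77 of 1153; 5.31 to 8.28%). At the unshared piCLIP peaks poly IgG had 6.28% (5.84 to 6.75%), below all 4 immunoprecipitates. Of the 2 sets, the nucleotides that iCLIP also called were thus the ones that held most of the poly IgG signal.

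The poly IgG events were concentrated. At chr14:120884401-120884418 (plus, 11 shared nucleotides) poly had 2 and 9 events and mono 42 and 16, against 83 in poly IgG. At chr12:110252415-110252481 (minus, 8) poly had 1 and 10 events and mono 28 and 19, against 78 in poly IgG. At chr17:47197549-47197589 (plus, 35) poly had 8 and 30 events and mono 67 and 98, against 109. Poly IgG is the shallower library, so in CPM it stood above all 4 immunoprecipitates at each of these loci.

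By contrast, chr6:97599403-97604489 (minus, 47 shared nucleotides) had 29 and 13 events in poly and 65 and 39 in mono, and 0 in both IgG libraries. Of the 183 loci with at least 20 immunoprecipitate events, poly IgG was above both poly immunoprecipitates at 49 and had no event at 81, and mono IgG had no event at 149. In 5000 nt windows with at least 20 immunoprecipitate events, poly IgG was above both poly libraries in 75 of the 385 that hold shared nucleotides (19.5%), near the 18.2% over all 620 such windows. That part of the pattern was therefore not a feature of the windows with shared nucleotides.

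**Figure D3:**
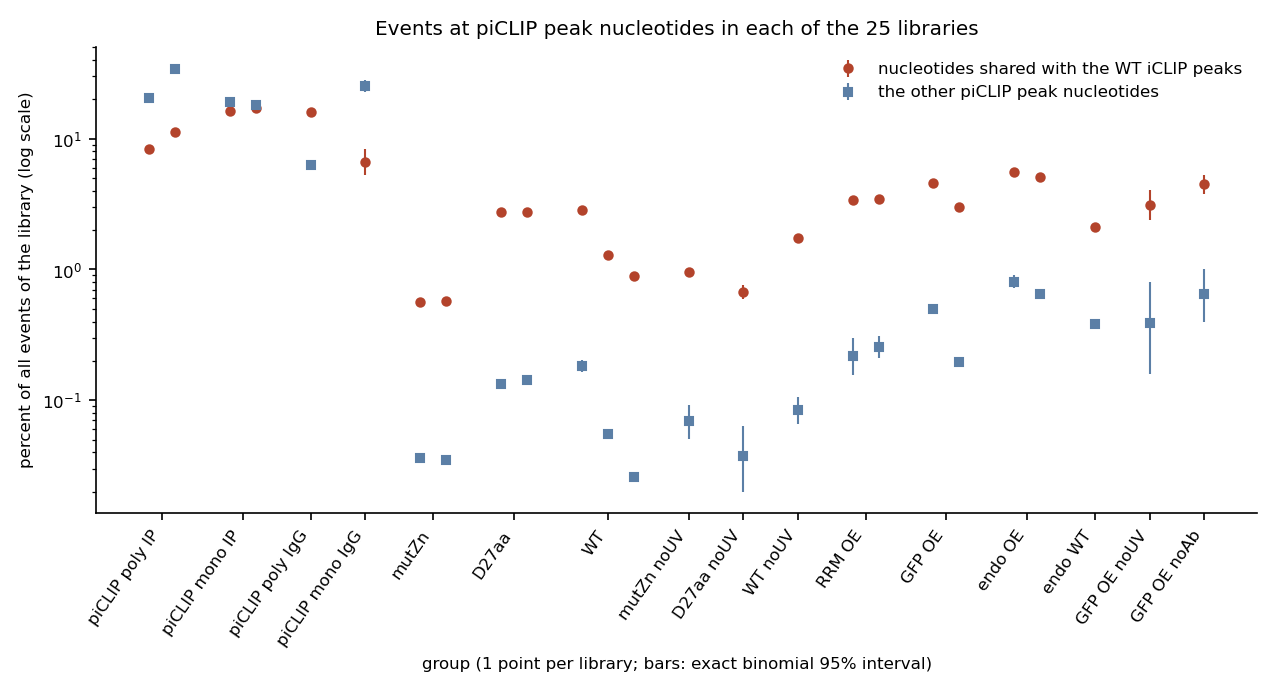
Percent of all events of a library (vertical axis, log scale) at the 6684 shared (red circles) and 13753 other (blue squares) piCLIP peak nucleotides, for the 25 libraries by group; bars are exact binomial 95% intervals. Shared nucleotides lie above the others in every iCLIP library and in poly IgG, and below them in the 4 immunoprecipitates and mono IgG. These are sums over sets of unlike size. Events per shared nucleotide over events per other nucleotide gave 0.841 and 0.682 in poly, 1.74 and 1.94 in mono and 0.543 in mono IgG.

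The difference between poly and mono was then tested across the genome with limma on log2 CPM (0.5 events added at the median library). Of 264 testable 5000 nt windows, 171 held shared nucleotides (3312 of the 6684), and 0 of these 171 passed an adjusted p of 0.05, beside 1.14% (3) of all 264. At an unadjusted p under 0.05 there were 0 with shared nucleotides and 13 in all, and limma-voom called 0. The median log2 fold change, poly over mono, was -0.15 both in windows with shared nucleotides and in all windows. Without poly 2, limma called 27 of 174 windows with shared nucleotides, 25 of them lower in poly, beside 17.9% (48) of 268. That fit holds 1 poly library, which is assumed to vary like the 2 mono libraries, and its calls say nothing of the spread in poly.

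Tested nucleotide by nucleotide, 105 piCLIP peak nucleotides had enough events, of which 68 were shared. limma called 0 of the 68, beside 0% of all 105, and limma-voom called 0. At an unadjusted p under 0.05 there were 1 shared nucleotide and 3 in all. That nucleotide, chr9:70402492 on the plus strand, had 0 and 0 events in poly and 17 and 8 in mono (limma adjusted p = 0.889). The medians were -0.57 over the 68 and -0.39 over the 105. Without poly 2, 9 of 66 shared nucleotides were called, all lower in poly, beside 15.7% (14) of 89, under the same assumption about the lone poly library.

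Non-overlap of the fractions was also no more frequent at shared nucleotides. In windows with at least 20 events, both poly libraries were below both mono libraries in 151 of 385 with shared nucleotides (39.2%), beside 40.6% of all 620. Both poly libraries were above both mono libraries in 7 of 385 (1.82%), beside 4.03%. Shares near the background say nothing particular of the shared nucleotides. At the level of loci, poly was below mono in both replicate numbers at 120 of 183 (65.6%) and above it in both at 8 (4.37%). Loci built the same way from the unshared nucleotides gave 107 of 186 (57.5%) and 23 (12.4%), and loci of all piCLIP peaks gave 234 of 375 (62.4%) and 24 (6.40%). The 183 loci had medians of -1.02 for the libraries numbered 1 and -0.74 for those numbered 2 (log2, 0.5 events added).

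**Figure D4:**
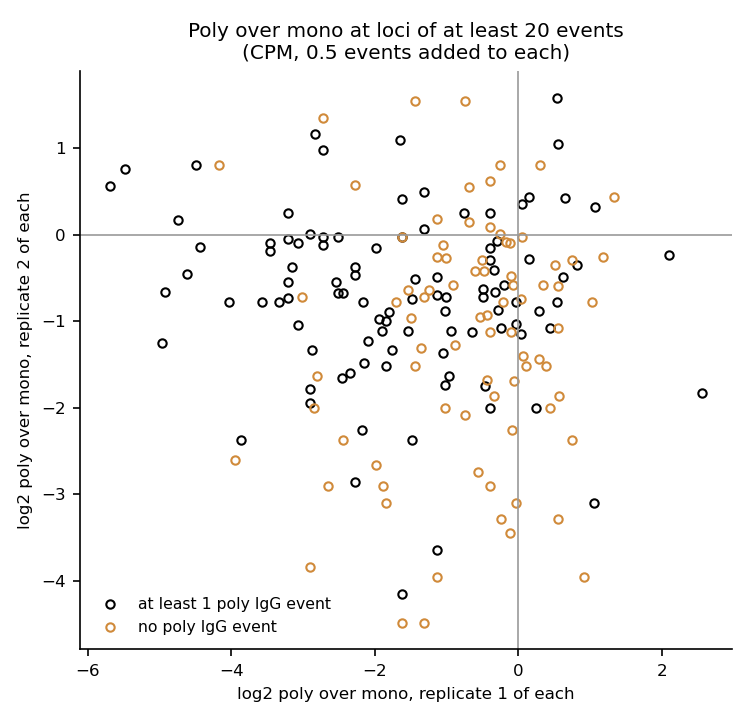
Log2 ratio of poly over mono CPM (0.5 events added to each) at the 183 loci with at least 20 immunoprecipitate events, for libraries numbered 1 (horizontal axis) and 2 (vertical axis); black loci have a poly IgG event and orange ones have none. Most points (120) lie in the lower left, where poly is below mono in both, and 8 lie in the upper right.

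Libraries that did not enter the piCLIP list also had events at most shared nucleotides. Whether any of them entered the WT iCLIP list is not known. Of the 6684, 5486 (82.1%) had an event in at least 1 of the 11 other UV iCLIP libraries, against 22.2% of the unshared ones. All 11 had an event at 83 shared nucleotides and at 3 unshared ones. In the anti-SRSF7 UV libraries, 3036 shared nucleotides (45.4%) had an event. WT iCLIP shares its cells with most of these libraries, so this overlap is a description.

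The peak lists of the variants also held more of the shared than of the unshared nucleotides. The mutZn list held 4743 of the shared nucleotides (71.0%) and 11.3% of the unshared ones, and the D27aa list held 2169 (32.5%) and 2.11%. As shares of their own lists these are 0.211% of 2246120 mutZn peaks and 6.24% of 34759 D27aa peaks. The lists differ in length, so the counts give no order of the variants.

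Controls without UV also reached the shared nucleotides. In mutZn they took 0.567% and 0.570% of events with UV, against 0.954% without UV (0.881 to 1.03%). In D27aa the share was 2.77% and 2.76% with UV, against 0.675% without UV (0.592 to 0.767%). In WT it was 2.85%, 1.29% and 0.893% with UV, against 1.75% without UV (1.67 to 1.84%). With UV the share of events was thus higher in D27aa, lower in mutZn and on both sides in WT, with 1 library without UV each. With each position counted once, the share with UV was lower in all 3: 0.0439% and 0.0662% against 0.724% in mutZn, 0.535% and 0.535% against 0.580% in D27aa, and 0.820%, 0.251% and 0.122% against 0.931% in WT. The D27aa value without UV rests on 198 shared nucleotides. Libraries without UV held 65076 (mutZn), 34124 (D27aa) and 84867 (WT) positions. With UV the fewest were 5671714, 346483 and 208295, and the part of depth was not tested. Of the shared nucleotides, 1148 (17.2%) had an event in at least 1 of the 4 libraries without UV, against 0.814% of the unshared ones. Positions of the D27aa library without UV were also positions of WT 4 in 31.3%, beside 11.9% for WT without UV and 9.69% for mutZn without UV. Per the file headers, D27aa without UV and WT 4 share a sequencing run, and the other 2 come from another run. Protein and run therefore cannot be told apart in this overlap.

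At the shared nucleotides the anti-SRSF7 controls were close to their UV libraries. The share was 3.39% and 3.48% in RRM_OE, 4.603% and 2.98% in GFP_OE, 5.52% and 5.10% in endo_OE and 2.12% in endo_WT. GFP_OE without UV had 3.13% (56 of 1789 events; 2.37 to 4.05%), and the library without antibody had 4.48% (138 of 3080; 3.78 to 5.27%). Both endo_OE libraries and GFP_OE 3 were above both controls, and the others were not. With each position counted once, the 7 UV libraries had 0.497 to 2.57%, all below the library without UV (2.83%) and the one without antibody (2.79%). These control values rest on 49 and 79 shared nucleotides. The controls held 1733 and 2831 positions, against 16244 to 421556 in the UV libraries, and the part of depth was not tested.

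Among the 7 anti-GFP UV libraries the share was lower the deeper the library. WT 2, with 221746 events, had the highest share, then came D27aa, WT 3 with 1099389, WT 4 with 3952779 and last the mutZn libraries. The mean was 0.569% in mutZn and 2.77% in D27aa, a ratio of 0.206, with groups that did not overlap and an exact two-sided permutation p of 0.333, the smallest that 2 against 2 allow (0.5 after Benjamini-Hochberg adjustment over the 9 tests of shares computed). Per the file headers, mutZn 4 and D27aa 2 come from the same sequencing run, and within that run the shares were 0.570% and 2.76%. The part of depth in this difference was not tested. At the unshared peaks the ratio was 0.259, so the difference was of like size there.

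Across 36173 windows of 5000 nt, limma called 0 of the 826 that hold shared nucleotides between mutZn and D27aa, beside 0% of all, with a smallest adjusted p of 0.0844. This test had little power here: on simulated data with known changes it found 0% of 4-fold and 7.58% of 8-fold changes. At an unadjusted p under 0.05 there were 331 of the 826 and 3764 of all. limma-voom, which weights by depth and found 20.9% and 68.2% of the same changes, called 295 of the 826 (35.7%), beside 3.71% (1341) of all windows. Of these, 270 (32.7%) were lower in mutZn, beside 3.22% of all windows, and 25 (3.03%) were higher, beside 0.487%. With the sequencing run as a block, limma-voom called 216, of which 191 were lower in mutZn, beside 969 of all windows. The windows with shared nucleotides held a median of 418 events over the 7 libraries of the fit, against 302 over all windows.

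Windows of the named loci show the size of these differences. At chr6:128745001-128750000 (minus) mutZn lay below D27aa with a log2 fold change of -4.89 ± 0.30 (SE; limma-voom adjusted p = 8.21e-12). The 48 shared nucleotides of that locus had 105 CPM in mutZn and 2871 in D27aa. At chr12:110250001-110255000 (minus), which holds a locus rich in poly IgG events, mutZn was again lower, with a log2 fold change of -6.58 ± 0.36 (limma-voom adjusted p = 6.77e-13) and 3.15 CPM in mutZn and 290.7 in D27aa at its 8 shared nucleotides. Each of the 10 loci with most IgG events had a tested window that limma-voom called lower in mutZn. The log2 fold changes there lay between -6.81 and -2.20. This order was not particular to them: mean CPM was lower in mutZn than in D27aa at all 22 named loci. At chr6:97599403-97604489, with 0 IgG events, it was 15.25 in mutZn and 280.4 in D27aa. At chr4:42091188-42092697, with 3 IgG events, it was 5.33 and 151.6.

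Other named windows moved less. The main window of the largest locus, chr17:80600001-80605000, had a log2 fold change of -1.61 ± 0.12 (limma-voom adjusted p = 3.36e-10), and its neighbour chr17:80595001-80600000 had 1.29 ± 0.35 (adjusted p = 0.036). At chr7:67120001-67125000 (minus) mutZn was above D27aa by 0.80 ± 0.10 (adjusted p = 2.68e-06). Without D27aa 1 or D27aa 2, limma called 28 and 54 windows with shared nucleotides, of which 18 and 33 were higher in mutZn, beside 1946 of 76260 and 2826 of 76027 windows in all. On mutZn and D27aa alone it called 132, of which 31 were higher, beside 2656 of 77666. The number and the direction of calls thus depend on the test and the libraries.

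Between RRM_OE and GFP_OE the shares at shared nucleotides overlapped (means 3.43% and 3.79%, ratio 0.927, exact permutation p = 1.0). Replicates numbered 3 share a sequencing run, as do those numbered 4, per the file headers. With each position counted once, both RRM_OE libraries (1.66% and 1.497%) were above both GFP_OE libraries (1.32% and 0.497%), so the direction of the means turned. RRM_OE held 16244 and 39145 positions and GFP_OE 113701 and 421556, and the part of depth was not tested. By events, within the run of replicates 3, RRM_OE was lower (3.39% and 4.603%), and within that of replicates 4 it was higher (3.48% and 2.98%). Of 441 testable windows, 159 held shared nucleotides, and limma called 0 of them, beside 0% of all. limma-voom called 0, and at an unadjusted p under 0.05 there were 9 of the 159 and 24 of all.

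The medians of the log2 fold change, RRM_OE over GFP_OE, were -0.55 in windows with shared nucleotides and -0.34 over all windows. Without RRM_OE 4, limma called 26 of 195 windows with shared nucleotides, all lower in RRM_OE, beside 89 of 673 in all. With replicates paired by run and RRM_OE and GFP_OE alone, it called 8 of 105, of which 7 were lower, beside 13 of 268. The chromosome 6 locus at chr6:128749487-128753129 had 0 and 6 events in RRM_OE and 39 and 133 in GFP_OE, and chr17:39980042-39985019 had 188 and 482 in RRM_OE and 490 and 3486 in GFP_OE. In CPM, the last-named locus had 10900 in RRM_OE and 5627 in GFP_OE on average, while the first had 69.8 and 294.7. The order of RRM_OE and GFP_OE thus differed between these loci.

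Around the shared nucleotides, events at the nucleotide stood highest over those 16 to 50 nt away in the piCLIP immunoprecipitates and poly IgG. The ratio of events at the nucleotide to the mean at 16 to 50 nt on both sides was 10.4 and 12.1 in poly and 8.98 and 9.81 in mono, where the peak call itself sets the maximum. In other UV iCLIP libraries it was 2.33 and 2.35 in mutZn and 3.73 and 3.78 in D27aa. It was 3.41 and 3.44 in RRM_OE, 3.70 and 3.07 in GFP_OE, and 4.45 in endo_WT. It was 10.2 in poly IgG, the highest outside the 4 immunoprecipitates. WT without UV had 3.09, mutZn without UV 2.56 and D27aa without UV 1.65, the lowest of all libraries. Against the mean 1 nt away, poly IgG had a ratio of 1.18, beside 1.92 and 1.96 in poly and 1.77 and 1.74 in mono. That was below D27aa (1.26 and 1.24) and endo_WT (1.34) and above mutZn (1.11 and 1.10). At the unshared nucleotides, the ratio to 16 to 50 nt away was 59.3 and 96.2 in poly and 33.1 and 28.6 in mono.

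The flanks were uneven in some libraries. At 16 to 38 nt downstream of the shared nucleotides poly IgG had 10123 events, against 1099 at the same distance upstream, a ratio of 9.21. The ratio was 1.11 and 0.890 in poly and 1.42 and 0.826 in mono. It was 2.05 and 1.92 in D27aa, against 0.804 and 0.824 in mutZn. The sums count an event once for each shared nucleotide within reach, so clusters weigh most. Poly IgG thus stood apart from the 4 immunoprecipitates in this ratio.

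**Figure D5:**
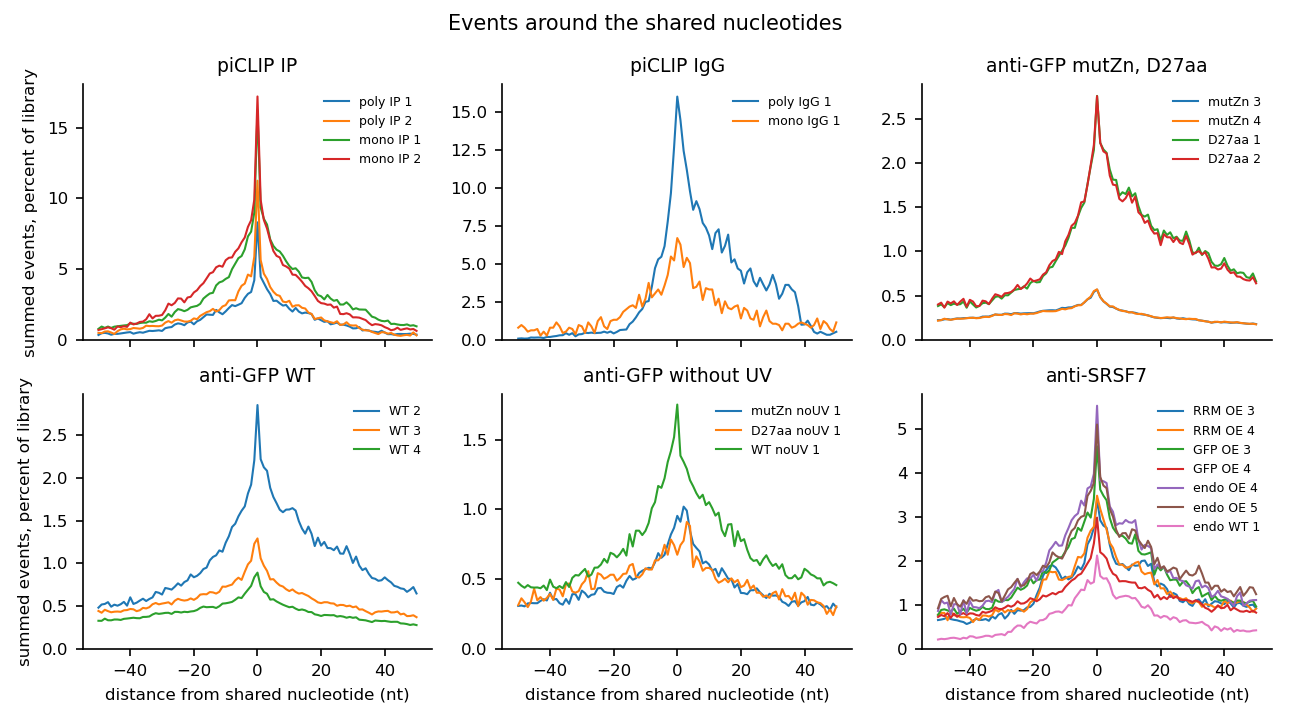
Events summed over the 6684 shared nucleotides, as a percent of all events of the library (vertical axes, which differ between panels), at each distance from the nucleotide in the direction of its strand (horizontal axes), 1 line per library, with the 2 anti-SRSF7 controls not drawn. All UV libraries peak at 0, and poly IgG has a shoulder at 16 to 38 nt downstream that its upstream side lacks.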

How the data were processed

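The deposited library files hold 1 signed whole-number score for each crosslinked nucleotide, which per the file headers is the number of cDNAs (events) with positions on mm9 and annotation Ensembl 59. Negative scores are events on the minus strand. The authors' peak lists, also deposited as scores, keep per the file headers positions that passed 100 permutations within 15 nt at a false discovery rate of 0.05. CASAVA 1.4 is named per the submitters' processing notes. No source used here names the aligner. The deposited score equalled the sum of the 4 immunoprecipitates at all 20437 piCLIP peaks.

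Shared nucleotides were found by exact position and strand with pandas 2.3.3. Events were counted per nucleotide, per locus and in 5000 nt windows, and scaled to 1000000 events of the library. Windows that reached 10 events (nucleotides: 5), scaled to the median library, in at least 2 libraries, and 15 in total (nucleotides: 7.5), were tested with limma 3.58.1 in R 4.3.3 on log2 values with a mean trend, trimmed-mean scaling and Benjamini-Hochberg adjustment. These minimums were set after the files were seen. The fits used the 4 immunoprecipitates, the 7 anti-GFP UV libraries or the 7 anti-SRSF7 UV libraries. The test was checked on simulated data. Of 8-fold changes limma found 96.6% for poly against mono (264 windows) and 100% for its nucleotides (105). It found 7.58% for mutZn against D27aa (36173 windows) and 69.4% for RRM_OE against GFP_OE (441 windows). The simulation gave all replicates 1 fixed spread, which was not estimated from these libraries. In the real poly against mono fit, chr6:43285001-43290000 (plus) had a log2 fold change of -2.50 ± 1.41 (SE; limma adjusted p = 0.994). The simulated rates therefore do not give the power on the real libraries. limma-voom, planned as an alternative, is given beside limma.

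The members, the lists and the rules for named loci were chosen with earlier results of these data known. Loci were named as the 10 with most shared nucleotides, the 10 with most immunoprecipitate events and the 10 with most IgG events, 22 in all. The rule also named windows past the threshold, of which limma gave none with shared nucleotides, so the windows of the named loci were given instead. Alternatives tried were the pseudocount, the filter, the scaling, the test, windows of 1000 nt, each position counted once, left-out replicates, replicate blocks, and other definitions of a shared nucleotide.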

Additional observations from a re-analysis of the deposited data

Results flagged for a closer look

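The authors' peak lists of control libraries were not used in any comparison, and 4 of them held shared nucleotides. The list of poly IgG held 38 among its 192 peaks (19.8%), while the list of mono IgG held 0 among 5. Of the lists made without UV, that of mutZn held 329 shared nucleotides among 2481 peaks (13.3%), that of D27aa held 119 among 847 (14.0%) and that of WT held 635 among 3666 (17.3%). The unshared piCLIP peaks met the poly IgG list 52 times and the mono IgG list 5 times. They met the lists without UV 3 times for mutZn, 0 times for D27aa and 12 times for WT. What brought these nucleotides into the control lists was not tested.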

How the results depend on the processing

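Windows and nucleotides with shared nucleotides were counted past an adjusted p of 0.05 under each alternative. Leaving out a replicate leaves 1 library in a group, assumed to vary like the others of the fit. For poly against mono, windows gave 0 under every alternative except left-out replicates (0 to 27). Nucleotides gave 0, apart from left-out replicates (0 to 9) and the replicate block (1). For mutZn against D27aa the counts were 3 with the larger pseudocount, 295 with limma-voom, 216 with limma-voom and the sequencing run as a block, 132 on both groups alone and 0 to 54 with left-out replicates. For RRM_OE against GFP_OE they were 54 without the filter (6256 of 187102 windows in all), 8 with the replicate block and both groups alone, and 0 to 26 with left-out replicates. Deviations of libraries with the same number correlated at 0.48 (poly and mono windows), 0.30 (nucleotides) and 0.39 (RRM_OE and GFP_OE). With 2 libraries per group both pairs give the same value by construction, so each correlation is 1 observation. For poly and mono the libraries share only a number, and their 6 libraries carry 1 run name.

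The share of events at shared nucleotides was 9.78% in poly (mean), 16.7% in mono and 15.99% in poly IgG. With each position counted once it was 8.40% in poly, 11.03% in mono and 6.70% in poly IgG, which turned the order of poly IgG and poly. The same setting put D27aa with UV below D27aa without UV (0.535% and 0.580%) and RRM_OE above GFP_OE (1.58% and 0.909%). Allowing 1 nt between the lists gave 19.4% in mono and 17.0% in poly IgG. With piCLIP peaks of at least 5 events the shares were 4.54%, 7.83% and 10.6%. With nucleotides that have a WT event, chosen after seeing the data like the sequencing run block and the left-out loci, they were 7.12%, 13.0% and 13.0%. Without the largest locus mono had 15.8%, and without the largest 2 it had 15.2%. The number of shared nucleotides was 10267 within 5 nt, 3221 with iCLIP scores of at least 5 and 802 with piCLIP scores of at least 5. The cause of these differences was not tested beyond the construction of each alternative. Depth limits most values: the majority of shared nucleotides have 1 event, and the mono IgG library has 1153 events.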

Other observations

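Of the 6684 shared nucleotides, 1910 had no event in WT 2, 3 or 4, and 363 loci consisted of such nucleotides alone. The 1910 had a mean piCLIP score of 2.14, beside 2.92 for the 4774 with a WT event, and a maximum of 37 beside 99. Among the 1910, 1166 (61.0%) had an event in at least 1 of the 11 other UV iCLIP libraries and 744 had none.

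The largest locus of this kind, named after its values were seen, was chr8:53422343-53422378 on the minus strand, with 17 shared nucleotides in 36 nt. It had 14 and 9 events in poly and 34 and 53 in mono, and 0 in both IgG libraries. Over all 19 iCLIP libraries it had 1 event in mutZn 3 and 1 in GFP_OE 3, while the authors' iCLIP scores there sum to 123. The source of these scores was not established here. At chr8:110080752-110080753 on the plus strand, the 2 shared nucleotides had 1 and 2 events in poly and 31 and 4 in mono, against 12 in poly IgG and 3 in mono IgG, with iCLIP scores summing to 201.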
